A study of Caenorhabditis elegans with 2 samples.

Results

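Promoter regions assigned by rule to a single gene were described from a chromatin immunoprecipitation and sequencing (ChIP-seq) experiment on SPR-1 in the nematode Caenorhabditis elegans. A region was taken when its summit, the position of highest signal, lay on an autosome within 500 bp of the annotated start of a protein-coding gene. Summits between the starts of a head-to-head gene pair, with both starts within 1000 bp, were left out as divergent promoters, and summits within 200 bp of a tRNA gene were left out as well. The rule kept 369 regions at 358 genes, which is 28.1% of the 1311 autosomal lines and part of 1686 lines of the thresholded list. No signal value entered the choice beyond the authors' threshold. Of 5585 autosomal candidates that met the same rule in the list made from both replicates together, 6.61% were lines of the thresholded list, and of 4545 genes with such a candidate 7.88% had a thresholded one.

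There was 1 group of 2 biological replicates. The worms were hermaphrodites of strain OP521, with the genotype unc-119(tm4063) III; wgIs521, whose integrated transgene makes SPR-1 with eGFP and FLAG at its C-terminus. L4 larvae were collected 50 hours after release from L1 starvation, and sonicated chromatin of whole animals was precipitated with an antibody to GFP. The promoter of the transgene is not stated in the labels, whole animals mix all tissues, and no list from untagged worms was analysed here, so a region is a place of high ChIP signal and its dependence on SPR-1 was not tested.

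SPR-1 is the worm counterpart of CoREST, a corepressor protein that joins a histone demethylase of the LSD1 family to histone deacetylases and that, in mammals, is brought to DNA by the repressor REST and other proteins. Worm promoters are compact. Many worm transcripts receive a spliced leader at the 5′ end by trans-splicing, so the annotated start of such a gene is the acceptor site and lies downstream of the place where transcription begins.

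The summit windows of 11 regions are shown first, since the base composition and the short words that recur in them are described further on. Each is the 101 bases centred on the summit, read 5′ to 3′ along the strand of the gene, from the RefSeq genome of WBcel235 (ce11). Capitals mark 4 words of 8 bases, on either strand: word 1 is GCGCCAGC, word 2 is AGACGCAG, word 3 is AAACGCGC and word 4 is AAGTGCGC. The windows of rpl-3, cdc-48.1 and cox-5A are among the 5 strongest regions and hold none of the words. Those of zip-11 and sec-61.G are the strongest with word 2, eelo-2 and dnj-9 the strongest with word 1 on the chromosomes shown, fust-1 holds 3 words, and W03F8.4 holds words 3 and 4. The windows of ntl-11 and Y73F8A.27 are shown because they resemble each other. The last 4 genes named were chosen after their values were seen.
rpl-3, chrIII:3867526-3867626, + strand: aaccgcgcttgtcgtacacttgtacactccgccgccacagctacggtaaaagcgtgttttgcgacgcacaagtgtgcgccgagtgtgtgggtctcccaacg
cdc-48.1, chrII:10563524-10563624, − strand: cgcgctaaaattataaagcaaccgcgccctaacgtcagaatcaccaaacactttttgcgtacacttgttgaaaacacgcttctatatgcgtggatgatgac
cox-5A, chrIII:12905140-12905240, + strand: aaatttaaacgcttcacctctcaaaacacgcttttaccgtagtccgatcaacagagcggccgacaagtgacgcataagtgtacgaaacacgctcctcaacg
zip-11, chrIV:3311381-3311481, + strand: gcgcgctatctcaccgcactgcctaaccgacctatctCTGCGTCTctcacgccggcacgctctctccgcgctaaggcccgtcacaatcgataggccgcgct
sec-61.G, chrV:10897321-10897421, − strand: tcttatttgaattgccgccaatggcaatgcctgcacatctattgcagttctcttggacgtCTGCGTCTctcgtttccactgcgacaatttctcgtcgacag
eelo-2, chrIV:17249839-17249939, + strand: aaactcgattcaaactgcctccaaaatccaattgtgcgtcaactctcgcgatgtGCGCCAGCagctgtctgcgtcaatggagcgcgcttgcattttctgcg
dnj-9, chrII:4851768-4851868, + strand: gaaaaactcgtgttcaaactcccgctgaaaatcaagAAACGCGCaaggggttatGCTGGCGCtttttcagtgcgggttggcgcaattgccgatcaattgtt
fust-1, chrII:7152124-7152224, + strand: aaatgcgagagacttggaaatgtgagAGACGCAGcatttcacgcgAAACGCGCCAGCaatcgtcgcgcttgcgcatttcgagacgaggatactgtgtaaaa
W03F8.4, chrIV:5183827-5183927, + strand: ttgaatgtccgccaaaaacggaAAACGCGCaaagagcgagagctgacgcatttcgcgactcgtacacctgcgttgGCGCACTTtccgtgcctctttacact
ntl-11, chrIV:15471577-15471677, − strand: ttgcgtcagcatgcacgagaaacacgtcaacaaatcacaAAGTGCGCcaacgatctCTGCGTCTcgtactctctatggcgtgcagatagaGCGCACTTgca
Y73F8A.27, chrIV:15472550-15472650, + strand: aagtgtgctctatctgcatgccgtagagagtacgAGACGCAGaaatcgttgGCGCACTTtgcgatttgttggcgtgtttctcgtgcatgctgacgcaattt

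The 5 strongest of these regions lay at rpl-3, cdc-48.1, rpl-35, zip-11 and cox-5A. The signal is on the authors' own scale, which the labels and headers do not define, so signals rank regions within a list, and each region's rank among the nuclear lines of each replicate is given beside it. The region of rpl-3, which encodes a large ribosomal subunit protein, had a signal of 1684 in the thresholded list, 970 in replicate 1 and 721 in replicate 2, and it was the strongest nuclear region in all 3 lists. Its summit lay 278 bp upstream of the gene. The region of cdc-48.1, whose AAA ATPase pulls ubiquitin-marked proteins out of complexes and membranes, had a signal of 782, with 427 in replicate 1 (rank 8) and 351 in replicate 2 (rank 14), and its summit lay 167 bp upstream. The region of rpl-35, another large subunit gene, had a signal of 757, with 386 (rank 10) and 376 (rank 12) in the replicates. All 3 stood among the 14 strongest nuclear lines of both replicates.

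The region of zip-11, a basic leucine zipper transcription factor gene, differed in place: its summit lay 155 bp downstream of the annotated start, in the 5′ untranslated region, with a signal of 661 and ranks 9 and 31 in replicates 1 and 2. The region of cox-5A, which encodes a cytochrome c oxidase subunit, had a signal of 635, its summit 301 bp upstream and ranks 27 and 16. These 5 regions were the only ones with a signal over 500, and 59 had a signal over 200. The next 10 had signals from 473 to 329. They lay at eelo-2, the histone H4 gene his-37, F44E7.5, the Integrator subunit gene ints-4, the mRNA cap methyltransferase gene cmtr-1, the translocon subunit gene sec-61.G, the cytochrome c oxidase gene cox-5B, the initiation factor gene eif-3.C, Y75B12B.11 and the DnaJ gene dnj-9. Their ranks were 31 to 85 in replicate 1 and 32 to 109 in replicate 2, so each of the 15 strongest was strong in both replicates.

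The weaker regions were less often among the strongest lines of both replicates. A candidate of each replicate overlapped 368 of the 369 regions, the exception being 1 of the 2 regions of F41F3.3, named after its values were seen, which had no candidate in replicate 2. Among each replicate's own 1686 strongest lines, 300 of the 369 regions (81.3%) were found in replicate 1, 303 (82.1%) in replicate 2 and 247 (66.9%) in both. All of the 50 strongest regions were among the strongest lines of both replicates, against 6 of the 50 weakest, and 13 regions were in neither. The weakest regions lie next to the threshold, and each replicate was cut at the same number of lines. This contrast thus follows in part from the cut and does not measure how well the replicates agree. Across the 368 regions, log2 signal in the replicates had a Spearman's rho of 0.621 and a Pearson's r of 0.694, given as a description, since the regions share 2 libraries and were thresholded on both. The summits of the replicates lay a median of 31 bp apart and within 50 bp for 253 regions.

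**Figure D1:**
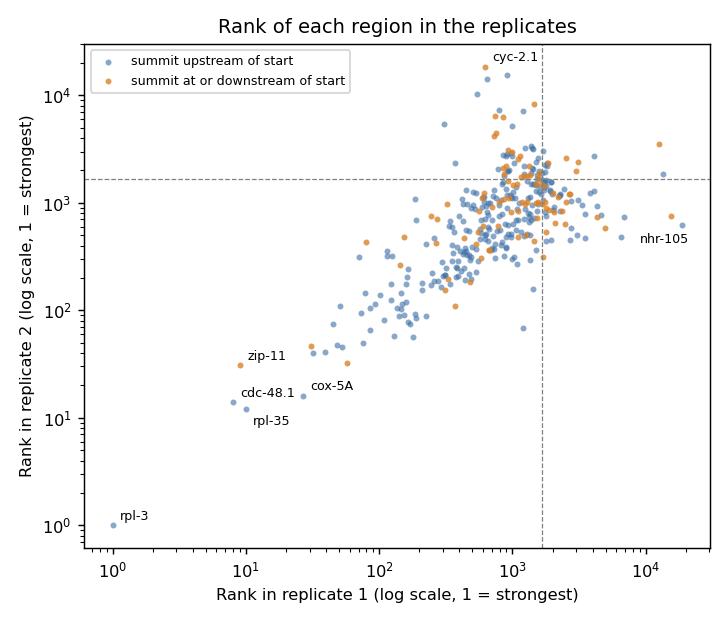
Rank of each one-gene promoter region among the nuclear lines of replicate 1 (horizontal, log scale) and replicate 2 (vertical, log scale), with 1 the strongest; each point is a region, blue where the summit lies upstream of the gene start and orange where it does not, and dashed lines mark the nuclear lines among each replicate's 1686 strongest, 1665 and 1664. The points with low ranks lie close together in both replicates, while nhr-105 (rank 18726 in replicate 1, 622 in replicate 2) and cyc-2.1 (626 and 18413) stand far from the diagonal.

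The region of nhr-105, a nuclear hormone receptor gene, and that of cyc-2.1, a cytochrome c gene, show how far the replicates can part. The nhr-105 region had a signal of 87.4 in the thresholded list, 15.6 in replicate 1 and 61.2 in replicate 2, and the cyc-2.1 region one of 86.8, with 73.7 and 12.9. At the threshold, the weakest regions inside were those of hxk-3, a hexokinase gene (signal 80.6), dhhc-3 (80.5) and T19A6.1 (80.5). The strongest candidates of the same kind outside were those of F18E3.11 (79.7), mrpl-50, a mitochondrial ribosomal protein gene (79.5), and rnh-2 (79.4). The last inside and the first outside were thus less than 1 unit of signal apart.

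Most summits lay upstream of the gene start. Of the 369 summits, 279 (75.6%) lay upstream and 90 at or downstream of the annotated start, with a median position 161 bp upstream and quartiles 290 and 9 bp upstream. All 207 thresholded summits left out as divergent promoters lay upstream of their nearest start. The share upstream is thus partly set by the rule, which was applied to the candidates too. The 5216 candidates below the threshold were divided nearly evenly between the 2 sides of the start: 48.8% lay upstream, and their median lay 8 bp downstream. Of the candidates upstream of a start, 9.87% were thresholded, against 3.26% of those downstream. When the rule was applied to each replicate's own 1686 strongest lines, it found 367 regions in replicate 1 and 404 in replicate 2 (386 ± 26.2, SD, n = 2). The share upstream was 74.9% in replicate 1 and 71.5% in replicate 2 (73.2% ± 2.4, SD, n = 2), and the medians were 148 and 150 bp upstream. The difference from the candidates below the threshold was 26.8 percentage points in the thresholded list, and the SD between replicates does not measure its error. In replicate 1, 11.1% of upstream and 3.76% of downstream candidates were among its own strongest lines. In replicate 2 these shares were 13.5% and 5.58%. No test was made, since there is 1 group and regions are not replicates.

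The interval from 300 to 200 bp upstream held the most summits, 79, and the largest share of its candidates in the thresholded list, 13.4%. It held the most summits in replicate 1 too, 71, but in replicate 2 the interval from 200 to 100 bp upstream held 73 and that from 300 to 200 bp held 71. The share of candidates thresholded was 10.1% from 400 to 300 bp upstream and 9.95% from 200 to 100 bp upstream, and 7.98% in the last 100 bp before the start. It was 4.64% in the first 100 bp after the start and between 2.27% and 3.51% further downstream. All intervals upstream stood above the 6.61% of all candidates and all those downstream stood below it. From 400 to 100 bp upstream lay 194 of the summits (52.6%), against 29.6% of the candidates below the threshold.

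**Figure D2:**
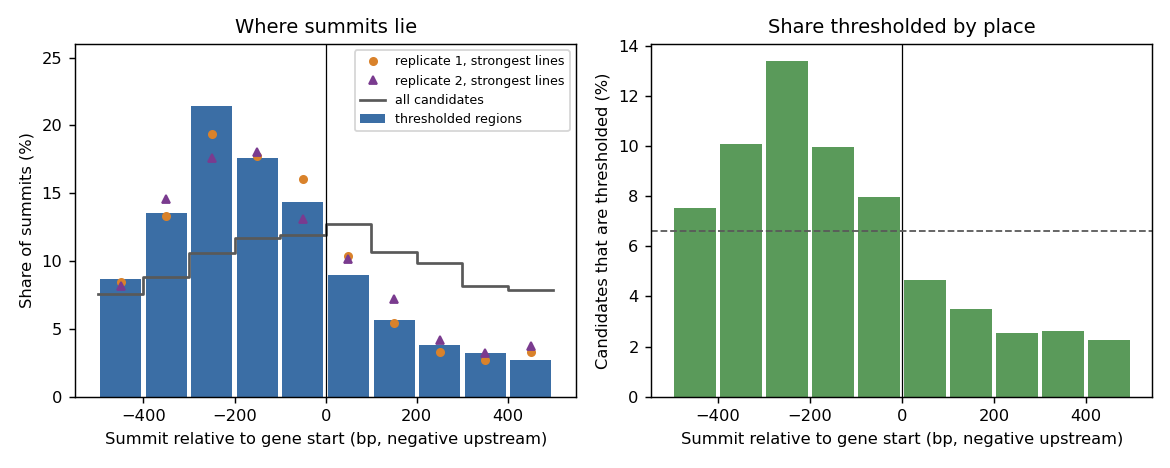
Left, share of summits in each 100 bp interval around the gene start (negative values upstream along the gene), for the thresholded one-gene promoter regions (bars), each replicate's own strongest lines (points) and all candidates (line); right, share of the candidates in each interval that were thresholded, with the dashed line at the share of all candidates, 6.61%. The bars and points peak upstream of the start, while the line is highest, 12.7%, in the first 100 bp after it. The share thresholded is highest, 13.4%, from 300 to 200 bp upstream.

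Strong regions lay upstream more often than weak ones. With the regions in 4 groups by signal, 87.1% of the 93 strongest (signal 1684 to 164) lay upstream, with a median of 222 bp. The next group had 84.8% and 189 bp, the one after it 60.9% and 91 bp, and the weakest 69.6% and 148 bp, so the order of the weaker groups was not the order of their signal. The stronger members of each replicate's own list had 80.4% and 80.7% upstream in replicates 1 and 2, and the weaker members 69.4% and 62.4%. This split, made after the values were seen, went the same way in both replicates. The most upstream summits were those of nhr-105 (491 bp), lin-59, which encodes a SET domain protein (489 bp), and F21D5.7 (484 bp). The most downstream were those of twk-5, a potassium channel gene (495 bp), F53F1.4 (492 bp) and the polyubiquitin gene ubq-1 (475 bp).

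By annotation, 253 summits (68.6%) were intergenic, 45 lay in introns, 36 in coding exons and 28 in 5′ untranslated regions. Of the 90 summits at or downstream of the start, 36 lay in coding exons, 27 in 5′ untranslated regions and 25 in introns. Candidates below the threshold were intergenic in 38.3% and in coding exons in 26.4%. Another gene start lay within 1000 bp of 54 of the summits, and for 315 there was none. For 17 summits, 2 gene starts lay within 500 bp, and the region was assigned to the nearer one. Which gene a region acts on was not tested. The upstream neighbour was on the same strand for 62.1% of the regions and for 67.6% of the candidates below the threshold. A neighbour on the same strand ended within 500 bp of the start for 34.1% of the regions and 34.6% of the candidates.

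The annotated start bears on these distances. Of the regions, 174 (47.2%) belonged to a gene whose annotated start follows the bases AG, the last bases of a splice acceptor, against 39.3% of the candidates below the threshold and 27.7% of all 17242 autosomal protein-coding genes. Where the start follows AG, the median summit lay 242 bp upstream and 85.6% of summits were upstream. Where it does not, the median lay 72 bp upstream and 66.7% were upstream. In the candidates below the threshold the corresponding shares were 51.3% and 47.3%. The bases before a start do not show that a transcript is trans-spliced, and which starts are acceptor sites was not tested.

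The 26 gene lists are sets of gene name patterns. A pattern can miss genes of its function and take in others, so each share is that of a pattern. Ribosomal protein genes had the highest share of these lists. Among genes with a cytosolic ribosomal protein name, 29 had a candidate at a one-gene promoter. Of these, 16 (55.2%) had a thresholded one, against 7.88% of all genes with a candidate. Membership rests on gene names alone. The large subunit name pattern gave 11 of 18, led by rpl-3, rpl-35, rpl-24.2 (signal 261, ranks 187 and 92) and rpl-41.2 (signal 166, ranks 428 and 331). In the small subunit there were 5 of 11, led by rps-28 (signal 242, ranks 162 and 203), rps-24 (183), rps-4 (135) and rps-17 (107). By each replicate's own strongest lines, the share over both subunits was 48.3% in replicate 1 and 46.7% in replicate 2, where 8.36% and 10.9% of all genes with a candidate were called. The median summit of these genes lay far upstream, 282 bp in the large and 305 bp in the small subunit. Restricting the rule to 250 bp from a start lowers the share of ribosomal protein genes among member genes from 4.47% to 1.89%. At divergent promoters, 12 ribosomal protein genes were the nearest gene to a thresholded summit, a count given without a share of the candidates there. Ribosomal protein genes of the mitochondrion were close to the background, at 3 of 33 genes (9.09%).

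Genes of protein folding, turnover and traffic also had shares above the background of 7.88%. The list of proteasome and ubiquitin genes had 10 of 38 (26.3%; 22.9% and 37.9% in the replicates), led by cdc-48.1 and by the ubiquitin or SUMO conjugating enzyme genes ubc-25 (signal 151), ubc-3 (139) and ubc-9 (128). The chaperone list had 6 of 33 (18.2%; 20.7% and 21.7%), with dnj-9 (signal 329), the Hsc70 gene hsp-1 (279), the Hsp70 cofactor gene bag-1 (224) and the prefoldin gene pfd-3 (126). Secretion and membrane traffic had 9 of 50 (18.0%; 21.4% and 30.0%), with sec-61.G (394), the COPII genes sar-1 (165) and sec-24.1 (150), and rab-18 (164). The rab-18 summit lay 35 bp downstream of the start. The respiratory chain list had 4 of 18 (22.2%), of which cox-5A, cox-5B and the cytochrome c1 gene cyc-1 (178) ranked high in both replicates and cyc-2.1 did not. Its name pattern left out the regions of nduf-11 (121) and nduf-7 (97.0), which are named after their values were seen.

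The lists of nuclear functions had shares above the background as well. Cell cycle and DNA replication genes had 10 of 41 (24.4%; 21.1% and 26.5% in the replicates), with the sliding clamp gene pcn-1 (signal 287), the kinase gene cdk-7 (195) and the kinetochore gene knl-3 (161) after cdc-48.1, which 2 lists share. The ribosome biogenesis list had 5 of 18 (27.8%). That count includes wdr-23 (142), which is known as an adaptor of a ubiquitin ligase and was taken in by its name. Next came nol-56 (117), wdr-46 (104) and imp-3 (88.1). Nuclear pore and transport had 4 of 17 (23.5%), with the mRNA export gene nxt-1 (194), the nucleoporin genes npp-8 (191) and npp-13 (83.0) and the importin gene imb-3 (132). Transcription machinery had 7 of 44 (15.9%), led by ints-4, the RNA polymerase II subunit gene rpb-11 (296), cdk-7 and pqn-51 (184). Splicing and mRNA processing had 5 of 38 (13.2%), led by the helicase gene mog-4 (297), the Sm protein gene snr-4 (169), hrpu-2 (137) and cpf-2 (135).

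Chromatin regulators had 9 of 47 (19.1%; 21.4% and 28.2%). The strongest were lin-9, which encodes a DREAM complex subunit (signal 301, ranks 178 and 57), set-4, a histone H4 lysine methyltransferase gene (220), and the HMG box genes hmg-6 (149) and hmg-1.2 (145). Chosen after their values were seen, because they bear on SPR-1, were rcor-1, another CoREST family gene, and spr-2, found in the same genetic screens as spr-1. The rcor-1 region, 428 bp upstream, had a signal of 101 and ranks 844 and 1559. The spr-2 region, 182 bp upstream, had a signal of 98.5 and ranks 4084 and 1291, so it was not among the strongest lines of replicate 1.

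Several lists were near or under the background. Transcription factor families had 10 of 124 (8.06%; 9.43% and 9.28%), led by zip-11, the zinc finger gene ztf-7 (signal 261), the basic helix-loop-helix gene hlh-11 (226) and the homeobox gene ceh-38 (192). Metabolic enzymes had 3 of 53 (5.66%), the citrate synthase gene cts-1 (103), the dehydrogenase gene dld-1 (89.3) and hxk-3. Neuronal and channel genes had 3 of 68 (4.41%), namely twk-5 (240) and the synaptotagmin genes snt-2 (94.3) and snt-4 (84.2). Cuticle and collagen genes had 2 of 74 (2.7%), sqt-1 (103) and bli-6 (84.2), both with summits in coding exons, but 10.4% and 13.1% by the replicates' own strongest lines, above the 8.36% and 10.9% of all genes there, so their side of the background differed between lists. No thresholded region lay at any of the 83 chemoreceptor genes, 24 sperm genes, 20 germ granule and maternal RNA-binding genes or 11 aminoacyl-tRNA synthetase genes with a candidate. At divergent promoters, however, thresholded summits lay nearest to 4 chemoreceptor genes, 2 sperm genes and 2 aminoacyl-tRNA synthetase genes. Shares of the candidates at divergent promoters are not given for these counts. Replicate 1 alone called 1 aminoacyl-tRNA synthetase gene of 17 and replicate 2 alone called 1 chemoreceptor gene of 68.

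The remaining lists rested on few genes. Muscle and cytoskeleton genes had 4 of 21 (19.0%), the tubulin genes tba-2 (signal 138) and tba-7 (88.6), the cofilin gene unc-60 (102) and the actin gene act-2 (101). Translation factors had 2 of 17, eif-3.C (353) and eif-3.B (168), but 21.4% and 23.1% in the replicates. Mitochondrial ribosomal protein genes were mrpl-28 (152), mrpl-55 (140) and mrps-23 (85.5). The lists of histone genes (his-37, 1 of 8), vacuolar ATPase genes (vha-2, 1 of 11) and nutrient and stress signalling genes (aakg-5, 1 of 10) had 1 gene each. In all, 19 of the 26 lists had a share above that of all genes, 113 of the 358 genes were in a list and 111 (31.0%) had only a sequence name.

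**Figure D3:**
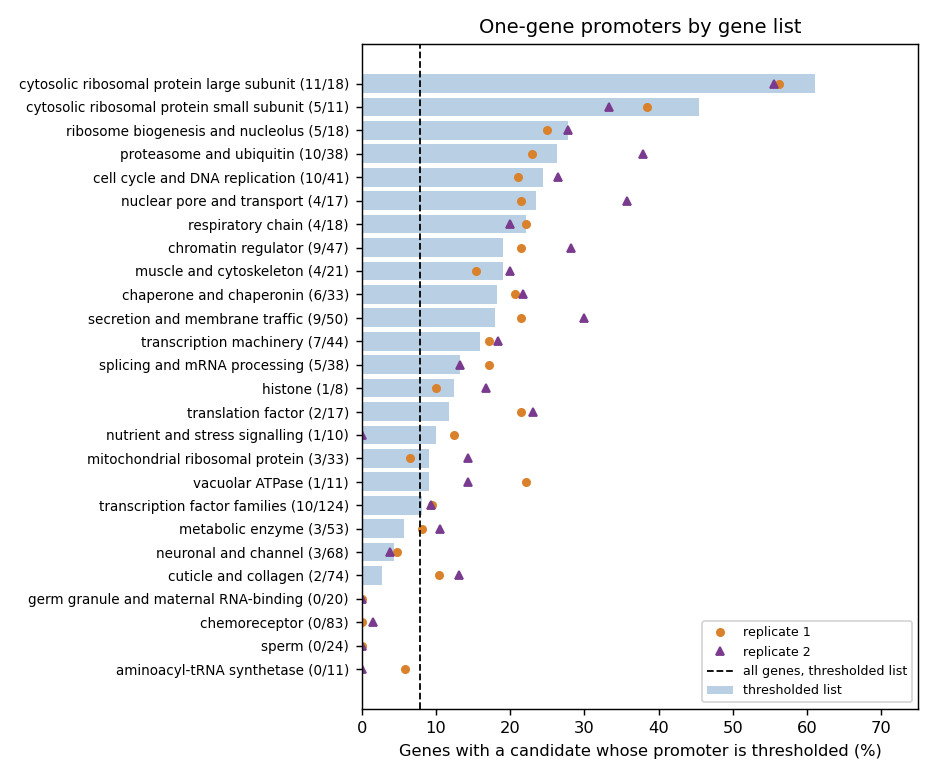
Share of the genes of each list with a candidate at a one-gene promoter that had a thresholded region there (bars, with members and genes with a candidate in brackets), and the same share by each replicate's own strongest lines (points); the dashed line marks 7.88%, the share of all such genes in the thresholded list. The ribosomal protein lists reach 61.1% and 45.5%, and the germ granule, chemoreceptor, sperm and aminoacyl-tRNA synthetase lists have no bar.

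Some genes held more than 1 region. There were 11 genes with 2 member summits, and 2 intervals held both summits of a gene. In the interval of kin-14, summits 47 bp downstream (signal 198) and 152 bp upstream (120) were called, and in that of fbxb-72 summits 97 bp (274) and 298 bp (108) upstream. Small RNA genes other than tRNA genes lay near a few regions: 13 summits were within 200 bp of a snoRNA gene, 3 within 200 bp of an snRNA gene and none of a miRNA gene. Those of cmtr-1, Y75B12B.11, twk-5, hmg-6 and snr-4 were among them, so for these regions the protein-coding gene is the nearest start by rule and a small RNA gene lies at the same place. The same counts are not given for the candidates below the threshold, so they have no background here. With small RNA genes of 4 kinds left out, 353 regions remained, and 6.39% of candidates were thresholded. By chromosome, II and III had the largest shares of candidates in the thresholded list, 7.42% and 7.13%, and IV the smallest, 5.99%. The middle of 3 equal parts of the autosomes held 41.2% of the regions and 42.8% of the candidates.

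The windows shown above for ntl-11, a CCR4-NOT complex gene, and Y73F8A.27 were nearly the same sequence. Their summits lay 973 bp apart between genes that face away from each other, and 92 of 98 aligned bases (93.9%) were identical when the windows were read on opposite gene strands. The ntl-11 region had a signal of 309 and ranks 129 and 58, and the Y73F8A.27 region one of 204 and ranks 302 and 207. Reads from near-identical stretches can be placed at either, so the signal of each may be uncertain. How reads were aligned is not given, and whether any were placed at the other stretch was not tested. From each summit the start of the other gene is over 1000 bp away, so neither was left out as a divergent promoter. Of all member pairs, 6 shared at least 10 words of 12 bases. The other 5 had an identity of 43.6% to 50.6% when aligned without gaps. This identity is over all aligned bases, so it can be low where a shorter stretch is identical. The windows of eel-1 and spd-5 shared 23 words of 12 bases, and those of rpl-3 and cox-5A shared 10. The stretch ctacggtaaaagcgtgttttg of the rpl-3 window lies in the cox-5A window on the other strand. The part of such stretches in the signal was not tested.

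The bases at the summit were rich in G and C. Within 50 bp of the summit the median GC content was 46.5% (quartiles 40.6% and 52.5%), against 34.7% in stretches 150 to 250 bp away on each side and 36.6% at the summits of candidates below the threshold. By replicate it was 47.5% and 45.5% (46.5% ± 1.4, SD, n = 2). Upstream summits had 47.5% and downstream summits 44.6%. In the 93 strongest regions it was 50.5%, and in the 92 weakest 44.6%. The CG dinucleotide occurred a mean of 6.91 times per summit window and 3.48 and 3.84 times in the flanks. A high GC content was not particular to these regions: it was 49.5% at divergent promoters, 48.5% at autosomal regions away from gene starts and 50.5% at tRNA genes. The part of GC content in the signal was not tested.

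**Figure D4:**
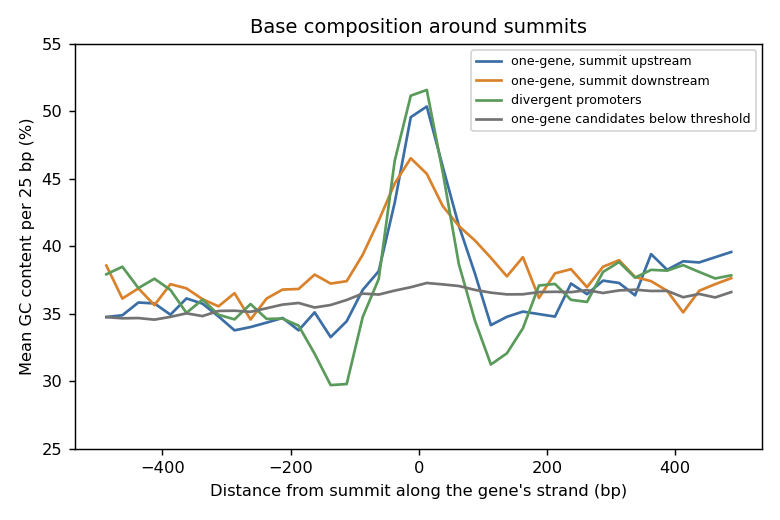
Mean GC content in steps of 25 bp around the summit, along the strand of the gene, for one-gene promoter regions with the summit upstream or downstream of the start, divergent promoters and one-gene candidates below the threshold. The regions with an upstream summit rise to 50.4% at the summit and the candidates below the threshold stay between 34.6% and 37.3%.

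The share of candidates that were thresholded was also taken by base composition and place together. With a GC content under 30%, 0.984% of upstream and 0.824% of downstream candidates were thresholded. From 40 to 45% the shares were 12.9% and 4.98%, from 45 to 50% they were 22.8% and 3.31%, and at 55% or more 33.8% and 9.82%. Within each of the 7 GC ranges, a split made after the values were seen, the share was higher upstream than downstream. The ranges are broad, and the part of each in the signal was not tested.

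A few short words recurred at the summits. The words were chosen from all words of 8 bases by how much more often they occurred in these windows than at upstream candidates below the threshold, so their frequency here is a description of the choice, and the other kinds of region show where else they occur. Word 1 was in 31 windows (8.4%), against 0.441% of all one-gene candidates below the threshold and 0.271% of the flanks on either side. It was in 9.18% of divergent promoters, but in 0.491% of autosomal regions away from gene starts, in 2.97% of X regions and in none of the 124 regions at tRNA genes. Word 3 (6.78%) and word 4 (5.96%) had a similar distribution: they were in 8.21% and 7.73% of divergent promoters and in 0.164% and 0.818% of autosomal regions away from starts.

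Word 2 was distributed otherwise. It was in 41 windows (11.1%), in 10.6% of autosomal regions away from gene starts, in 8.47% of X regions and in 6.76% of divergent promoters. At candidates below the threshold it was in 2.19%, and at the upstream ones in 3.34%. Restricting each set to windows with a GC content of at least 46.5%, the median of the regions, left word 1 in 10.4% of the regions and 1.3% of the candidates, and word 2 in 13.4% and 5.49%. These candidates lie on both sides of the start. With upstream summits only, at the same GC content, word 1 was in 11.8% of the regions and 1.89% of the candidates. For word 2 these shares were 14.3% and 8.96%. Any of the 4 words was in 92 windows (24.9%, with 23.4% and 22.3% by the replicates' own strongest lines). That was 28.0% of windows upstream of the start and 15.6% of those downstream. At candidates below the threshold any of the words was in 3.64%, and at the upstream ones in 5.69%. The regions with a word had a median signal of 134 and those with none 109.

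**Figure D5:**
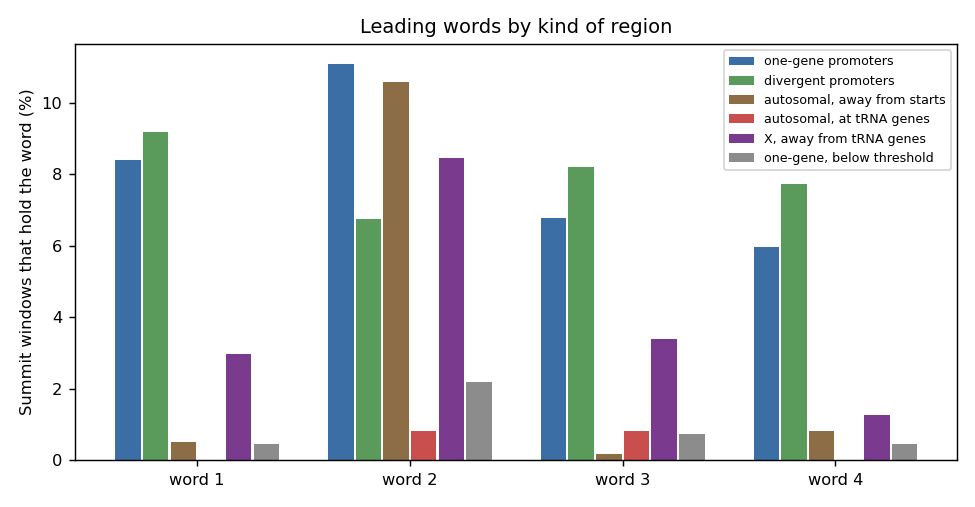
Share of summit windows that hold each of the 4 words on either strand, by kind of region: thresholded one-gene and divergent promoters, autosomal regions away from starts or at tRNA genes, X regions, and one-gene candidates below the threshold. Words 1, 3 and 4 are most frequent at both kinds of promoter, while word 2 is at 11.1% of one-gene promoters and 10.6% of autosomal regions away from starts.

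The words were chosen within 50 bp of the summit, so their nearness to it is partly set by the choice. Within 100 bp of the summits word 1 matched 36 times, 25 of them within 25 bp. Word 2 had 24 of 58 matches within 25 bp, word 3 had 18 of 35 and word 4 had 15 of 31. The words occurred in both directions, word 1 with 13 matches on the strand of the gene and 23 on the other. Word 1 lay a median of 150 bp upstream of the start. Word 3 lay a median of 208 bp upstream, and 24 of its 25 windows belonged to upstream summits. Some bases next to the words recurred too: a C stood 8 bases before word 1 in 30 of 36 matches, and an A 3 bases before it in 29. A G came directly before word 2 in 53 of 58 matches and an A directly after it in 47. Words 1, 3 and 4 overlap in letters, since all hold GCGC, and in fust-1 words 3 and 1 run into each other.

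By gene list the counts of regions with a word are small and are read beside the 24.9% of all regions. In the chaperone list, 4 of 6 regions held a word, with word 1 and word 3 in 3 regions each, among them dnj-9 and pfd-3. In secretion and membrane traffic 6 of 9 held one, word 2 in 3 of them. Of the 16 ribosomal protein regions 3 held one, and the strongest, rpl-3 and rpl-35, held none. The proteasome and ubiquitin list had 2 of 10, cell cycle and DNA replication 2 of 10, chromatin regulators 2 of 9, nuclear pore and transport 1 of 4 and ribosome biogenesis 0 of 5. No difference between lists was tested.

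Words of known promoter elements were searched on both strands as well. Here the 279 windows upstream of a start are set against the upstream candidates below the threshold, first over all windows and then over those with a GC content of at least 46.5%. The TATA word TATAAA was in 4.3% of the windows and 15.4% of the candidates, and at the higher GC content in 1.86% and 3.77%. The run TTTTTTTT was in 5.38% and 12.7%, and at the higher GC content in 1.24% and 1.42%. The GAGA word GAGAGA was in 19.4% and 10.9%, and at the higher GC content in 20.5% and 21.9%. For these words and those that follow, shares were closer in percentage points, or in the other order, once GC content was restricted. The E2F-type word GCGCGAAA was in 2.87% and 0.707%, and at the higher GC content in 3.73% and 1.65%. The core GCGCG, which lies on the other strand of word 3, was in 33.7% and 10.3%, and at the higher GC content in 44.7% and 28.5%. The E-box CACGTG was in 3.23% and 2.47%, and at the higher GC content in 3.11% and 3.77%. The GATA word GATAAG was in 2.87% and 5.3%, and at the higher GC content in 0.621% and 2.83%. A match is a description of letters in a window and not of a bound site.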

How the data were processed

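The authors deposited region lists, not reads, on ce10 and ce11; the ce11 lists were used. How reads were aligned and peaks called is not given in the sources, and neither is the threshold. The deposited signal of each region is on the authors' own scale. The authors' −log10 q values entered no result. How deeply each library was sequenced is unknown, so no interval that needs depth is given. The pooled list held 30000 lines, replicate 1 26070 and replicate 2 21966. The 23 mitochondrial lines of the thresholded list were left out. Summits were set against Ensembl release 115 gene starts on WBcel235. Every region end lay within its chromosome. Replicate values apply the rule to each replicate's own 1686 strongest lines. No test was made, with 1 group of 2 replicates.

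Members and gene lists were chosen with earlier results of these data known. The text names the 15 members of highest signal, the 4 strongest in each list, 3 on each side of the threshold, the 3 most upstream and downstream summits and intervals with 2 summits; others are said to be chosen after their values were seen. Gene lists are sets of gene name patterns. The code for classes, distances and words was tested on simulated data. Python 3.11.15, pandas 2.3.3, numpy 2.4.6 and matplotlib 3.10.9 were used. Alternatives were other distances, starts, lists and overlaps.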

Additional observations from a re-analysis of the deposited data

How the results depend on the processing

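The median summit stayed upstream of the start, and most summits stayed upstream, under each alternative run. Within 250 bp of a start there were 218 regions, 71.6% upstream at a median of -86 bp from the start, with 1.89% ribosomal protein genes. Within 1000 bp the share upstream was 72.2%, the median -185 bp and the ribosomal protein share 3.62%. Leaving out pairs within 2000 bp gave 72.7%, -157 bp and 4.93%, and nearest transcript starts gave a ribosomal protein share of 3.94%. The stronger part of the list gave 191 regions, 86.4% upstream, -213 bp, 5.35% ribosomal protein genes, a GC content of 48.5% and 3.42% of candidates. With either replicate left out, the share upstream was 71.5% to 74.9%, the median -150 to -148 bp, the ribosomal protein share 3.61% to 4.01% and the share of candidates 7.44% to 9.61%. Of replicate 1 members, 74.4% were members of replicate 2 as well, 81.4% in the stronger part of the list, 63.8% with an overlap of at least 50% of each region and 98.9% with any candidate of replicate 2. With replicate summits within 50 bp, an alternative chosen after seeing the data, 79.4% lay upstream. The cause of these moves was not tested. No paired analysis was possible because there is 1 group. Unknown read depth limits all statements on weak regions.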
